A study of Mus musculus with 24 samples.

Results

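The enzymes that write and erase methyl groups on DNA and histones were followed in livers of C57BL/6J mice as a set of 43 named genes, taken by gene symbol from a count table of 56205 gene rows. All 43 symbols were found, none on a sex chromosome, and 42 had enough reads to be tested; Tet1 did not. Poly(A) RNA was sequenced from whole livers of 24 mice, 12 on a control diet and 12 on a diet deficient in methionine and choline (MCD), each kept up for 20 weeks. The series design gives 6 males and 6 females per diet, but no single library carries a sex label, so each diet was treated as a single group. By the methods of the study, the deficient diet was also rich in fat. The labels name no transgene, deletion or drug for either diet, and the age of these animals is not given in the sources used here.

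The methyl groups come from the diet in part. DNA and histone methyltransferases take their methyl group from S-adenosylmethionine (SAM), which the liver makes from methionine. Dnmt1 copies methylation onto newly replicated DNA with the help of Uhrf1, which recognises hemimethylated sites, while Dnmt3a and Dnmt3b lay down new marks and the TET dioxygenases oxidise them. On histone H3, methylation of lysine 4 and lysine 36 marks active genes, and methylation of lysine 9 and lysine 27 marks silent ones. The TET enzymes and the Jumonji lysine demethylases need iron and 2-oxoglutarate, whereas Kdm1a uses a flavin cofactor.

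Several members are made mainly by dividing cells, and E2F factors are known to drive genes of DNA replication. RefSeq promoter windows of 300 bases on GRCm38.p6, running from 250 bases before to 50 bases after an annotated start, were matched by symbol to 31 of the 43 members. The windows were searched on both strands for E2F motifs spelled TTTCCCGC, TTTGGCGC, TTTCGCGC or TTTGCCGC, and for the cell cycle genes homology region motif TTTGAA. An E2F motif stood in a window of 3 of the 31 members (9.68%), namely Uhrf1, Dnmt1 and Ezh2, against 4.47% of tested genes with a window and 2.60% of all genes with a window. The TTTGAA motif stood in windows of Dnmt1, Dnmt3b and Suv39h2 (9.68%), against 14.6% of tested genes and 20.2% of all genes, and no member window held both motifs. Of all 32851 windows, 2.26% held an E2F motif and 17.9% held TTTGAA. A match describes letters in a window and no more. The windows of the 3 members with an E2F motif are shown beside that of Kmt2c, the member with the largest fall and no match. By the rule for printing sequences Uhrf1 alone would appear, and the other windows were chosen after their values were seen. Capitals mark the E2F motif, the annotated start is base 251, and each window reads 5′ to 3′ on the strand of its gene.
Uhrf1, chr17:56304063-56304362, plus strand, motif at base 66: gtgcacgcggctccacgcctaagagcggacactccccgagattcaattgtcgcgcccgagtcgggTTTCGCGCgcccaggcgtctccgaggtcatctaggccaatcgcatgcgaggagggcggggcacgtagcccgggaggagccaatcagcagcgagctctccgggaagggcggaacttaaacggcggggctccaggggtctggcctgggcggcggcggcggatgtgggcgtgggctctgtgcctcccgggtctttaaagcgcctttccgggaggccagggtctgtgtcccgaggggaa
Dnmt1, chr9:20952574-20952873, minus strand, motifs at bases 32 and 284: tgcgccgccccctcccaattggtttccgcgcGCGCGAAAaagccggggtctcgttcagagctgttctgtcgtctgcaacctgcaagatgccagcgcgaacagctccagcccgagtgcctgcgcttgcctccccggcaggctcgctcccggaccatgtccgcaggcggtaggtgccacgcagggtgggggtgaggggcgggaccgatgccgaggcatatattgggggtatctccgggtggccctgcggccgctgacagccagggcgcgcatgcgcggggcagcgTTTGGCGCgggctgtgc
Ezh2, chr6:47594981-47595280, minus strand, motif at base 254: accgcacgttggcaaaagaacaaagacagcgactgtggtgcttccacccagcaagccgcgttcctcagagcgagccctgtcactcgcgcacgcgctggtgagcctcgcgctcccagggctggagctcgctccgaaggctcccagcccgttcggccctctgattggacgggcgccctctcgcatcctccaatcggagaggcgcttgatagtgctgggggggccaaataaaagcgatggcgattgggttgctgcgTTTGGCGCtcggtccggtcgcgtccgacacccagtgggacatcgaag
Kmt2c, chr5:25498734-25499033, minus strand, no motif: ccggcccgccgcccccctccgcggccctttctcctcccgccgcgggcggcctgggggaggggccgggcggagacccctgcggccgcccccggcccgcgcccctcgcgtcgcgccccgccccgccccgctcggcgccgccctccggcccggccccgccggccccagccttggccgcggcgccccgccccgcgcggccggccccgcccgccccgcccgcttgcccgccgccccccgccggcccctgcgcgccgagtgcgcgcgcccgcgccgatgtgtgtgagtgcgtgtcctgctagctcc
Taking the window richest in CpG for each gene, the 31 members had a median of 33 CpG dinucleotides. That median was 21 for tested genes and 8 for all genes. The Kmt2c window held 56, and the 3 windows with an E2F motif held 33, 33 and 31.

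Libraries held 16388650 to 24915175 counts. The libraries differed in scaling and in transcript length, and both touch every value that follows. The TMM scaling factors ran from 0.642 to 0.973 in control and from 1.07 to 1.26 in MCD. Control replicate 3 served as the TMM reference, which gave the largest diet difference in log2 factors of any of the 24 possible references (0.368, median 0.307, lowest 0.265). Control replicate 12 stood apart, with a mean correlation of 0.916 with the other controls, where the remaining controls reached 0.95 to 0.964 and the MCD libraries 0.970 to 0.977. In control replicate 12, genes with transcripts over 7 kb lay lower relative to genes up to 4 kb, members left out (log2 index -0.79). That index was 0.66 and 0.56 in control replicates 3 and 6, 0.06 to 0.24 in the other 9 controls and -0.35 to -0.02 in the MCD libraries. Results are given with all libraries, and without these 3 where they matter; leaving them out was decided after the data had been seen.

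The comparison of the diets asked whether the enzymes changed in MCD livers. A gene was past the threshold when edgeR's quasi-likelihood test gave it a false discovery rate (FDR, by Benjamini and Hochberg) of 0.01 or less and its log2 fold change exceeded 0.5 in either direction. Of the 42 members tested, 9 passed (21.4%), against 38.3% of all 14109 genes. Uhrf1, Prmt1, Setd7 and Dnmt3a rose, 4 members where 19.2% of all genes rose. Kmt2c, Setd1b, Nsd3, Tet3 and Setdb2 fell, 5 members where 19.1% of all genes fell. Members thus passed at a smaller share than all genes did, a difference that was not tested. Their median absolute log2 fold change was 0.36, compared with 0.41 for all genes. The FDR limit alone was met by 22 members, a share of 52.4% that equals the 52.4% of all genes. Of these, 13 did not reach the fold limit, 31.0% of members against 14.2% of all genes. Log2 fold changes were negative for 28 members (66.7%, against 57.5% of all genes) and positive for 14. The members' median was -0.24, against -0.10 for all genes.

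**Figure D1:**
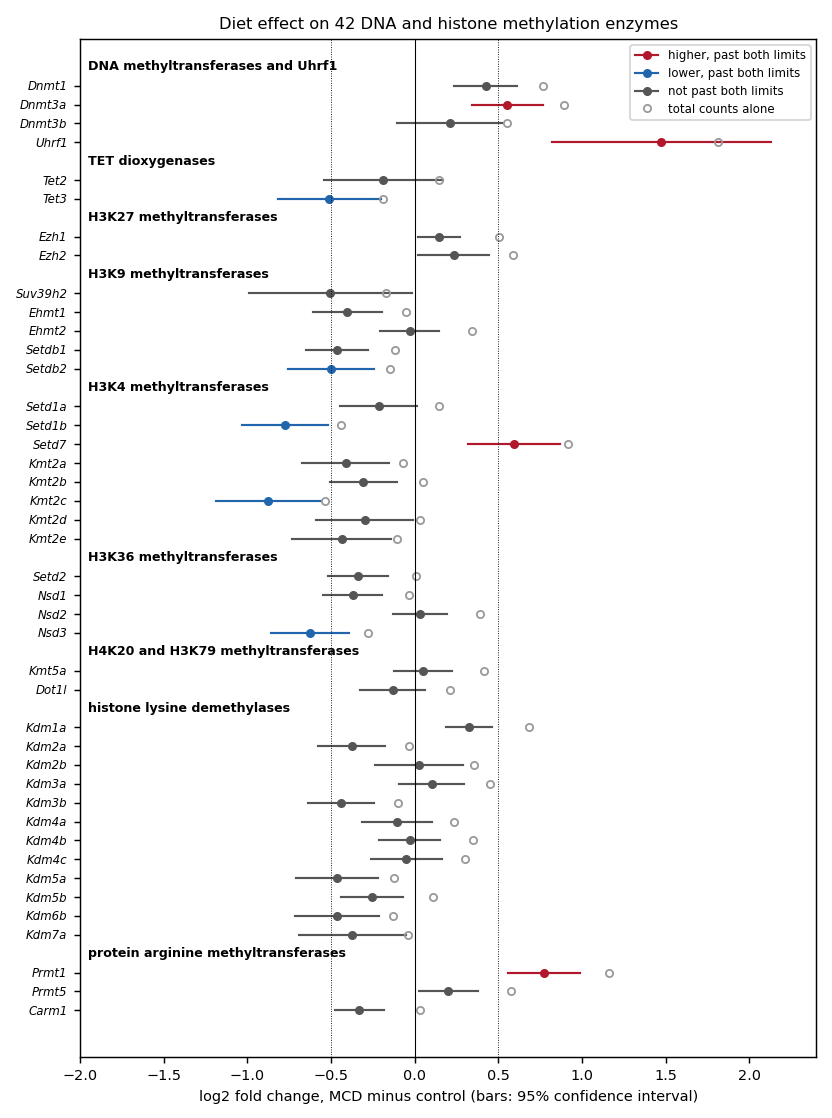
Log2 fold change (MCD minus control) of the 42 tested members, grouped by enzyme family, with the 95% confidence interval as a bar, dotted lines at the fold limit of 0.5 and open circles for scaling by total counts alone. Uhrf1 sits farthest to the right at 1.47 and Kmt2c farthest to the left at -0.88, and every open circle lies to the right of its filled point.

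The direction of many members depended on how libraries were scaled. With total counts alone, the median of all genes moved up by 0.37, 10 members were higher (32.2% of all genes) and Kmt2c was the 1 lower member (6.01% of all genes). With upper-quartile factors 5 members were higher and 2 lower, while 3261 and 1710 of all genes were higher and lower. The distance of the members' median from that of all genes was -0.14 under TMM, relative log expression, upper-quartile and total-count scaling alike, and -0.09 without control replicates 3, 6 and 12. In whole tissue, fewer cells of a type and less RNA per cell cannot be told apart.

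No member separated the diets completely, where 9.5% of all genes had every MCD library above every control and 4.88% had every MCD library below. With control replicate 12 set aside, Prmt1 lay above in all MCD libraries (11.7% of all genes did), and Tet3, Setd1b, Kmt2c, Nsd1 and Kdm3b lay below in all MCD libraries (10.2% of all genes did). Refitting without control replicate 12 gave 4 higher members (21.5% of all genes) and 7 lower ones (17.9% of all genes), the additions being Suv39h2 at -0.58 and Kdm5a at -0.50. Without control replicates 3, 6 and 12, 4 members of the main test were higher (22.1% of all genes). Another 4 were lower (16.3% of all genes), Tet3 having dropped to -0.38. Tet1 also entered that fit, but only its MCD counts took it past the low-count filter, so its call there is not counted.

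In the group of DNA methyltransferases and their partner Uhrf1, Uhrf1 had the largest change of the 42 tested members. Its level ran from 0.260 to 2.80 CPM (counts scaled to the size of each library) in control livers, with a median of 0.982, and from 2.33 to 5.47 CPM in MCD livers, with a median of 3.87. In 11 of 12 MCD libraries Uhrf1 exceeded every control, and the ranges overlapped through the remaining MCD library. The log2 fold change was 1.47 ± 0.32 (SE; FDR 0.000248). The controls were uneven, with 8 libraries at 0.260 to 1.51 CPM and 4 at 2.57 to 2.80 CPM. Uhrf1 was read from 4 to 62 counts per control library, so its low values carry large counting error.

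Dnmt3a, the main de novo methyltransferase of adult tissues, ran from 17.6 to 41.1 CPM in control livers (median 25.6) and from 33.0 to 47.0 CPM in MCD livers (median 40.8). All 12 MCD libraries lay above the control median and 5 above every control. This gave a log2 fold change of 0.55 ± 0.10 (SE; FDR 3.85e-05). Dnmt1, the maintenance enzyme, ran from 9.91 to 16.7 CPM in control (median 14) and from 14.9 to 21.2 CPM in MCD (median 18.3). Its log2 fold change was 0.42 ± 0.09 (95% interval 0.235 to 0.611). Dnmt1 met the FDR limit (0.000251) and not the fold limit, although 9 MCD libraries exceeded every control. Dnmt3b, which acts mostly in embryonic cells, lay at 1.14 to 2.66 CPM in control (median 1.79) and 1.32 to 2.73 CPM in MCD (median 2.08), and its log2 fold change of 0.21 (95% interval -0.11 to 0.52) did not pass. All 4 genes of this family had positive fold changes on the TMM scale, and with total counts alone all 4 were past the threshold, where 32.2% of all genes were higher.

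Both TET dioxygenases in the main test had negative fold changes, and Tet3 alone passed. Tet3, at 2.69 CPM per kb of transcript in control livers against 1.15 for Tet2, ran from 9.38 to 46.4 CPM in control (median 26.9) and from 17 to 22.8 CPM in MCD (median 21.0). All 12 MCD libraries lay below the control median, and control replicate 12 alone lay below the MCD range. Its log2 fold change was -0.51 ± 0.15 (SE; FDR 0.0043), just past the fold limit. It was -0.46 with another TMM reference, -0.45 with relative log expression factors or DESeq2 and -0.38 without control replicates 3, 6 and 12, each short of the fold limit, and -0.19 with total counts alone (FDR 0.377). Tet2, a tumour suppressor of blood cells, ran from 2.80 to 17.6 CPM in control (median 9.84) and from 6.18 to 11.2 CPM in MCD (median 9.56), with a log2 fold change of -0.19 (95% interval -0.54 to 0.17). Tet1, best known from embryonic stem cells, was counted 0 to 9 times per control library (median 2) and 5 to 20 times per MCD library (median 14). These counts kept Tet1 out of the main test, and without the low-count filter its log2 fold change was 1.75 (FDR 0.000208).

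The H3K27 methyltransferases of Polycomb repressive complex 2 did not pass on the TMM scale in edgeR, nor in DESeq2 or limma-voom, although both had an unadjusted p under 0.05 in edgeR. With total counts alone both passed in edgeR, Ezh1 at 0.50 (FDR 5.07e-05) and Ezh2 at 0.59 (FDR 0.000182), where 32.2% of all genes were higher. Ezh1, the subunit of resting cells, ran from 21.0 to 28.2 CPM in control (median 24.2) and from 23.1 to 31.4 CPM in MCD (median 26.6), with a log2 fold change of 0.15 (95% interval 0.02 to 0.27). Ezh2, the subunit of dividing cells, ran from 2.89 to 5.02 CPM in control (median 4.09) and from 3.78 to 5.72 CPM in MCD (median 4.38), with a log2 fold change of 0.23 (95% interval 0.02 to 0.45; FDR 0.054). The diets overlapped for both genes. Exons of Ezh2 overlap an antisense gene in GENCODE release M21, and whether strand was used in counting these libraries is not given in the sources used here.

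Among the H3K9 methyltransferases, Setdb2 fell. It ran from 5.68 to 15 CPM in control (median 10) and from 5.71 to 8.75 CPM in MCD (median 7.16), and all 12 MCD libraries lay below the control median. The log2 fold change was -0.50 ± 0.12 (SE; FDR 0.00103), and it was -0.44 with another TMM reference, relative log expression factors or DESeq2, short of the fold limit, and -0.15 with total counts alone (FDR 0.334). Setdb1, which silences retroelements with Trim28, met the FDR limit alone at -0.46 (95% interval -0.65 to -0.28). Ehmt1, known as GLP, did so at -0.40 (-0.61 to -0.19), while its partner Ehmt2, known as G9a, was at -0.03 (-0.21 to 0.15). Suv39h2, at 0.0757 to 1.34 CPM in control and 0.421 to 0.847 CPM in MCD, gave -0.51 (-0.99 to -0.02; FDR 0.0648) and rested on 1 to 23 counts per library.

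The H3K4 methyltransferases had 3 of 8 members past the threshold (37.5%, beside 38.3% of all genes), of which 2 fell and 1 rose. Kmt2c, an enhancer methyltransferase also called MLL3, ran from 8.93 to 33.9 CPM in control livers (median 25) and from 7.62 to 17 CPM in MCD livers (median 13.5). Control replicate 12 was the only control that fell inside the MCD range, and the other 11 began at 18.2 CPM. With a log2 fold change of -0.88 ± 0.15 (SE; FDR 1.89e-05), it had the largest fall among members. Kmt2c was the only lower member that also passed with total counts alone, at -0.54. An exon of Kmt2c overlaps an antisense gene, Gm42585.

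Setd1b, a catalytic subunit of the SET1 complexes that place trimethyl marks at promoters, ran from 23.8 to 61.4 CPM in control (median 34.4) and from 16 to 26.4 CPM in MCD (median 22). In 10 of 12 MCD libraries Setd1b lay below every control. Setd1b thereby had a log2 fold change of -0.78 ± 0.13 (SE; FDR 6.24e-06), and of -0.44 with total counts alone, where it did not pass. Setd7, a monomethyltransferase that also acts on many non-histone proteins, went the other way. It ran from 6.05 to 19.3 CPM in control (median 11.8) and from 16.8 to 21.6 CPM in MCD (median 17.4), and all 12 MCD libraries lay above the control median. Its log2 fold change was 0.59 ± 0.13 (SE; FDR 0.000415). Dnmt3a and Setd7 overlap antisense genes as well.

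The other H3K4 genes did not reach both limits. Kmt2a, or MLL1, was at -0.41 (95% interval -0.67 to -0.15) and Kmt2b, or MLL2, at -0.31 (-0.51 to -0.11), both within the FDR limit alone. Kmt2d, the enhancer partner of Kmt2c, was at -0.30 (-0.59 to -0.01), Setd1a at -0.22 (-0.45 to 0.02) and Kmt2e, an MLL relative without clear enzyme activity, at -0.44 (-0.73 to -0.14). Of the 8 members of this family, 7 had negative fold changes on the TMM scale, and the median with total counts alone was -0.02.

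**Figure D2:**
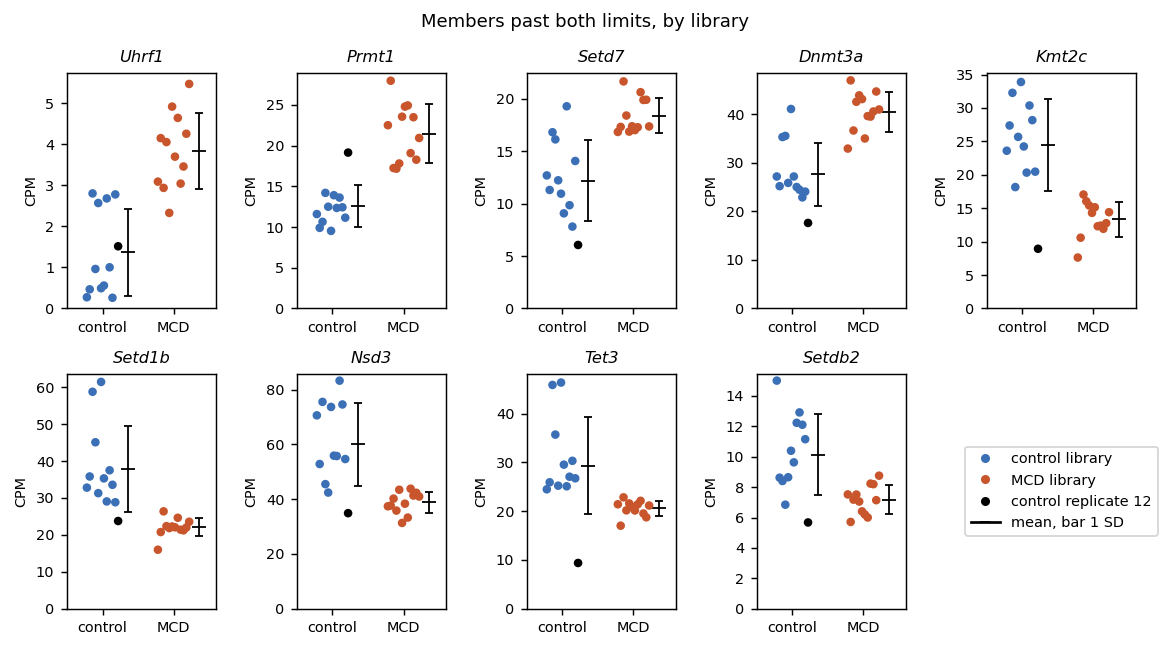
CPM of the 9 members past both limits in each library, with control libraries in blue, MCD libraries in orange and control replicate 12 in black, beside the mean and 1 SD of each diet (n = 12). The 4 higher members stand first and the 5 lower ones follow; for Kmt2c, Setd1b, Nsd3, Tet3 and Setdb2 control replicate 12 is the lowest control.

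Of the H3K36 methyltransferases, Nsd3 fell. It ran from 34.9 to 83.3 CPM in control (median 55.8) and from 31.3 to 43.8 CPM in MCD (median 39.3), with all 12 MCD libraries below the control median and 2 below every control. The log2 fold change was -0.63 ± 0.11 (SE; FDR 3.17e-05), and it missed the fold limit with upper-quartile factors (-0.47) and with total counts alone (-0.28). Nsd1, which makes the dimethyl mark, met the FDR limit alone at -0.37 (95% interval -0.55 to -0.19). Setd2, which makes the trimethyl mark behind elongating polymerase, did so at -0.34 (-0.52 to -0.16). Nsd2 was at 0.03 (-0.13 to 0.19). Neither the H4K20 enzyme Kmt5a, which acts around mitosis, at 0.05 (-0.13 to 0.22), nor the H3K79 enzyme Dot1l, at -0.13 (-0.33 to 0.06), passed.

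With all libraries, none of the 12 histone lysine demethylases passed both limits on the TMM scale in edgeR, nor in DESeq2 or limma-voom, where 38.3% of all genes passed in edgeR, although 7 had an unadjusted p under 0.05 in edgeR and 5 met the FDR limit alone. Kdm1a, or LSD1, was the only one of those 5 with a positive fold change, at 0.32 (95% interval 0.19 to 0.46; FDR 0.000168). Its level ran from 12.1 to 18.4 CPM in control (median 16.6) and from 17.9 to 22.2 CPM in MCD (median 19.8), with 10 of 12 MCD libraries above every control, and it passed with total counts alone at 0.69 (FDR 1.84e-07). The 4 others were Kdm3b at -0.44 (-0.64 to -0.25), Kdm2a at -0.38 (-0.58 to -0.18), Kdm5a at -0.46 (-0.71 to -0.22) and Kdm6b at -0.46 (-0.72 to -0.21). Kdm5a passed without control replicate 12 (-0.50), and Kdm6b passed without control replicate 5 (-0.51) or 11 (-0.50). Kdm3b removes H3K9 marks, Kdm2a H3K36 marks, Kdm5a H3K4 marks and Kdm6b H3K27 marks, so these genes oppose different writers. Neither Kdm5b at -0.26 (-0.44 to -0.07) nor Kdm7a at -0.37 (-0.69 to -0.05) met the FDR limit of 0.01. The remaining 5 lay near 0, with Kdm3a at 0.10 (-0.10 to 0.30), Kdm4a at -0.11 (-0.32 to 0.10), Kdm4b at -0.03 (-0.21 to 0.15), Kdm4c at -0.05 (-0.26 to 0.16) and Kdm2b at 0.02 (-0.24 to 0.29).

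Among the protein arginine methyltransferases, Prmt1 rose. This enzyme makes most asymmetric dimethylarginine in mammalian cells. Prmt1 ran from 9.53 to 19.1 CPM in control (median 12.4) and from 17.2 to 28.0 CPM in MCD (median 21.7). The highest control was replicate 12, and the next control reached 14.2 CPM, below every MCD library. The log2 fold change was 0.77 ± 0.11 (SE; FDR 5.10e-07), the smallest FDR of any member. Prmt5, which makes symmetric dimethylarginine, was at 0.20 (95% interval 0.02 to 0.38) and did not pass. Carm1, which methylates H3 arginine residues at active genes, met the FDR limit alone at -0.33 (-0.48 to -0.19), and 7 MCD libraries lay below every control.

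The scaling factor of a library cancels in a ratio of related members, apart from the prior count of 2, which pulls ratios toward 0 where counts are low. For 19 of 20 listed pairs both genes were tested, and the difference between diets of the mean log2 CPM ratio was examined with a two-sided permutation test over libraries (100000 resamples, adjusted over the 19 pairs). The ratio differed at an adjusted p of 0.01 or less for 8 of the 19 pairs. No share for ratios of other gene pairs was computed, so these counts have no background. Kdm3b to Kdm3a was the only pair whose diets did not overlap. Its mean log2 ratio was 1.44 ± 0.22 (SD, n = 12) in control and 0.91 ± 0.18 in MCD, a difference of -0.53 (permutation test, adjusted p = 0.00019), with all 12 MCD libraries below every control. Exons of Kdm3b overlap an antisense gene, Gm26538, and whether strand was used in counting is not given. Prmt5 to Prmt1 moved by -0.56 (adjusted p = 0.000855) and Uhrf1 to Dnmt1 by 1.36 (adjusted p = 0.00095; 1.47 with a prior count of 0.5). Setd1b thus lost ground to Setd1a by -0.55 (adjusted p = 0.00133), and Tet3 to Tet2 by -0.34 (adjusted p = 0.00209). Kmt2d gained on Kmt2c by 0.60 (adjusted p = 0.00171), Kdm2b on Kdm2a by 0.43 (adjusted p = 0.00203) and Nsd2 on Nsd1 by 0.39 (adjusted p = 0.0024). Each of these kept its sign without control replicates 3, 6 and 12, at values from -0.65 for Prmt5 to Prmt1 to 1.47 for Uhrf1 to Dnmt1. With same-numbered libraries taken as pairs, Kdm3b to Kdm3a and Prmt5 to Prmt1 still passed (both adjusted p = 0.00464) and the other 6 did not. The ratio of Ezh2 to Ezh1, the Polycomb switch between dividing and resting cells, differed by 0.09 (adjusted p = 0.563).

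**Figure D3:**
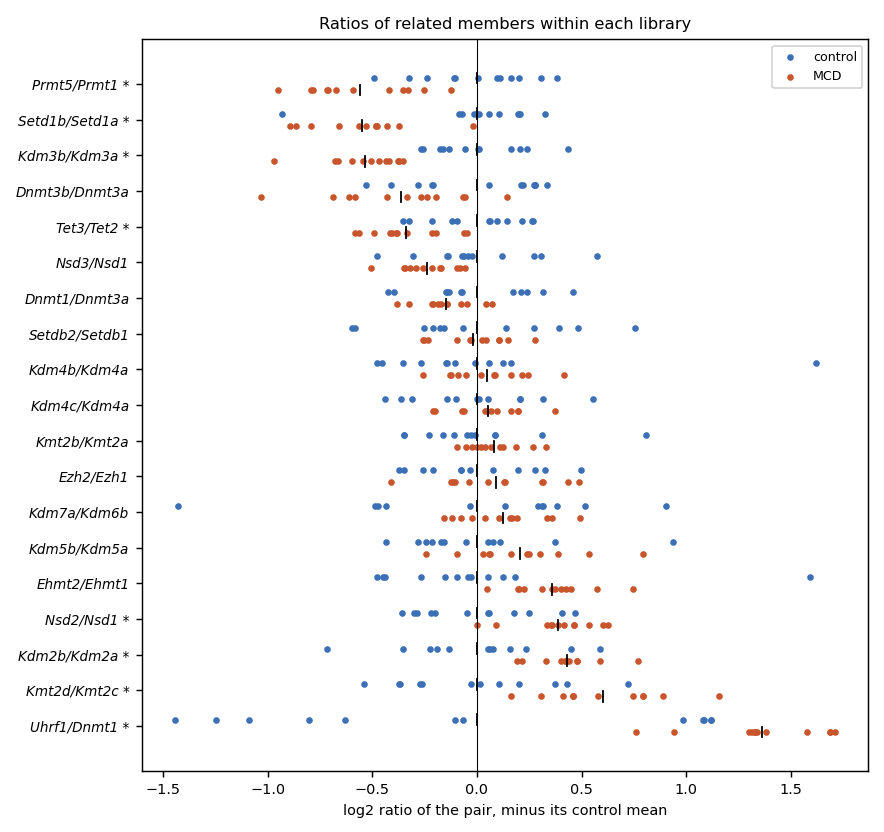
Log2 ratio of each of the 19 related pairs in every library, minus the mean of the control libraries, with blue points for control, orange points for MCD and a black line for each mean; an asterisk marks an adjusted p of 0.01 or less. Kdm3b/Kdm3a separates the diets fully, and the control points of Uhrf1/Dnmt1 spread widest.

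Transcript length moved with these changes. The members are long, with a median of 6.43 kb for the longest annotated transcript against 3.26 kb for all tested genes. Across the 42 members the log2 fold change fell with length (Spearman's rho -0.52), and across 13968 genes with a length rho was -0.16. These points share the same 24 libraries and are not independent. The 5 members that fell had a median of 10.1 kb and the 4 that rose a median of 5.50 kb. Among the 18 members over 7 kb, 15 had a negative fold change, as did 850 of the 1182 genes of that length. The median was -0.37 for the 18 members, close to -0.34 for those genes. Among the 16 members of 4 to 7 kb the median was -0.08, against -0.20 for all genes of that length. Among the 8 members up to 4 kb it was 0.22, against -0.03. Of the 8 pairs whose ratio differed, the longer member lost ground in 7, the exception being Kmt2d over Kmt2c, and of all 19 pairs it did so in 13. Setdb2 at 3.03 kb and Dnmt3a at 9.68 kb were likewise the shortest lower member and the longest higher member. The part of transcript length or RNA quality in these changes was not tested.

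The length balance differed between libraries as well as between diets. Summed over the 42 members, expression was 1520 and 1450 CPM in control replicates 3 and 6, 881 CPM in control replicate 12, 1020 to 1230 CPM in the other 9 controls and 934 to 1050 CPM in MCD. Control replicate 12 was the lowest control for 28 of the 42 members, and it was the lowest control for 27.8% of all genes. Control replicate 3 was the highest control for 14 members and for 13.2% of all genes. The members, like all genes tested, were more even in MCD livers. Their coefficient of variation had a median of 9.59% in MCD against 21.8% in control, and over all genes tested 14.2% against 26.7%. It was wider in control for 41 of the 42 members (97.6%), and for 90.0% of all genes. Without control replicates 3, 6 and 12 it was wider in control for 34 members (81.0%) and 71.5% of all genes.

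**Figure D4:**
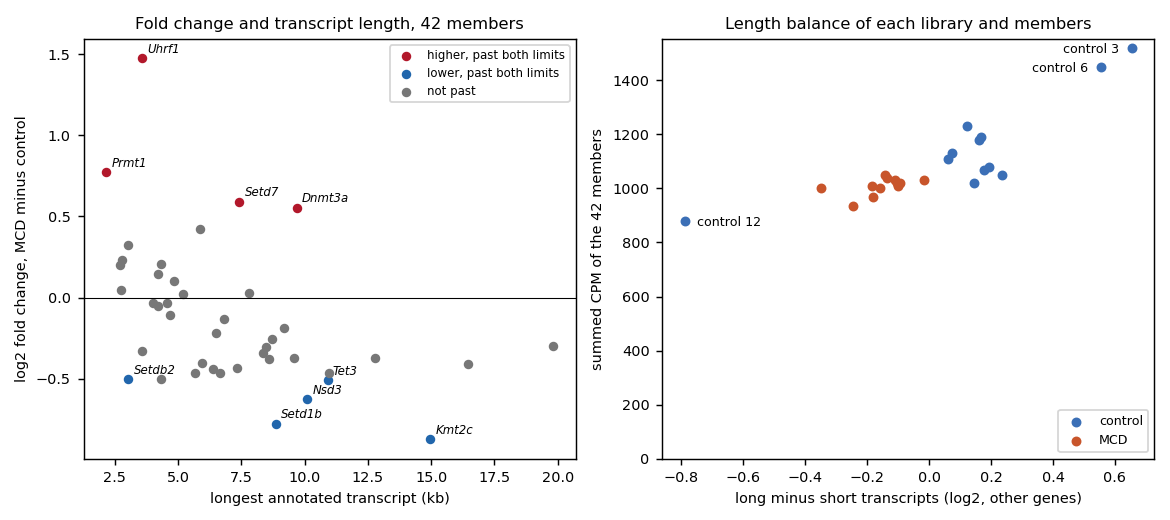
Left, log2 fold change (MCD minus control) of each member against its longest annotated transcript in kb. Right, summed CPM of the 42 members in each library against the log2 index of long over short transcripts, with control replicates 3, 6 and 12 named; control replicates 3 and 6 reach 1520 and 1450 CPM and control replicate 12 lies at 881 CPM, outside the span of the other libraries.

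Levels of different members can be compared only per length. In control livers Ehmt2 stood first at 28.4 ± 5.62 CPM per kb (SD, n = 12), followed by the H4K20 enzyme Kmt5a at 14.6 ± 2.61 and Carm1 at 11 ± 1.66. At the other end stood Dnmt3b at 0.410 ± 0.112, Uhrf1 at 0.380 ± 0.293 and Suv39h2 at 0.192 ± 0.0837 CPM per kb. Only 4 of the 41 neighbouring pairs in this order differed by more than the larger of their SDs, namely Ehmt2 over Kmt5a, Kmt5a over Carm1, Carm1 over Kdm2a and Tet2 over Dnmt3b. The order in MCD livers began with Ehmt2 at 27.7 ± 2.12 and Kmt5a at 15.1 ± 1.37 CPM per kb. Prmt1 went from place 7 in control to place 3 in MCD, at 10 ± 1.67 CPM per kb, while Nsd3 went from place 6 to place 15. Uhrf1 reached 1.07 ± 0.255 CPM per kb in MCD and moved from place 41 to place 38.

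Members tied to DNA replication or mitosis were set against a proliferation score, the mean log2 CPM of 18 proliferation genes. Of the 19 proliferation genes listed, 18 were tested, 12 rose and 1 fell (72.2% in all), where 19.2% of all genes rose and 19.1% fell. Cdk1, the mitotic kinase, had a log2 fold change of 1.79 ± 0.21 (SE; FDR 3.43e-08), and Rrm2, a ribonucleotide reductase subunit, fell by 0.52 on the log2 scale (FDR 0.0016), a call that was lost with another TMM reference (-0.46). Within each diet the score was correlated with Uhrf1, Dnmt1, Ezh2, Suv39h2, Kmt5a and Nsd2, which made 12 relations. By permutation test, none of the 12 passed an adjusted p of 0.05, and 3 had an unadjusted p under 0.05. With total counts alone 3 of the 12 relations passed. Uhrf1 in control livers came closest, with Pearson's r of 0.76 (permutation p = 0.00594, adjusted p = 0.0713) and Spearman's rho of 0.71 (permutation p = 0.0115, adjusted p = 0.138) over 12 libraries. Without the 2 libraries farthest from the median score, r was 0.64 (permutation p = 0.0439, adjusted p = 0.222). For Kmt5a in control livers, leaving out those libraries took r from 0.25 to 0.72 (permutation p = 0.0191, adjusted p = 0.222). In MCD livers r for Uhrf1 was 0.59 (permutation p = 0.0427, adjusted p = 0.198), and for Dnmt1 in control livers it was 0.58 (permutation p = 0.0494, adjusted p = 0.198). The diets formed separate clusters, so no pooled value is given.

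**Figure D5:**
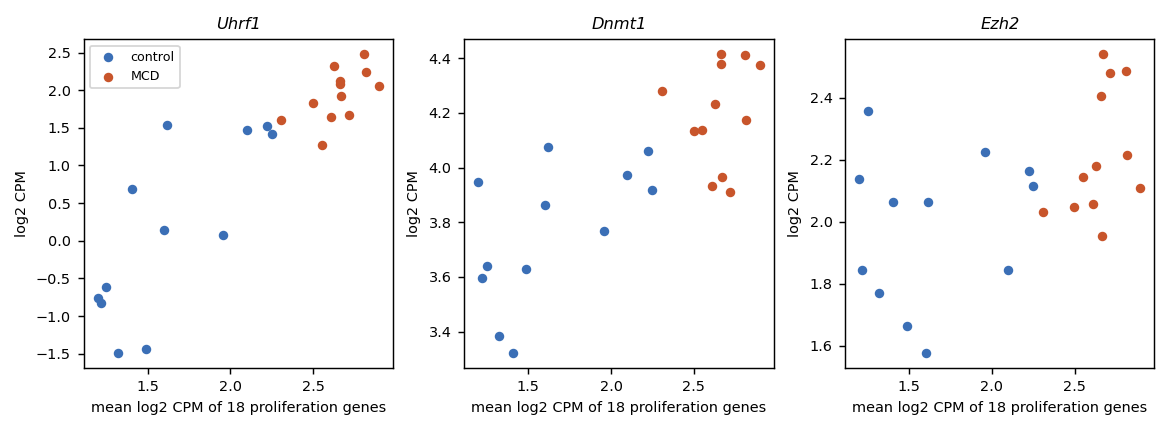
Log2 CPM of Uhrf1, Dnmt1 and Ezh2 in each library against the mean log2 CPM of 18 proliferation genes, with control libraries in blue and MCD libraries in orange. MCD libraries lie to the right of the controls in every panel. For Uhrf1 within the controls r was 0.76, which did not pass adjustment (permutation test, adjusted p = 0.0713).

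The partners of the enzymes were read from lists of related genes. Over the 8 partner lists, proliferation among them, 107 genes were tested, of which 16 rose and 19 fell (32.7% in all, against 38.3% of all genes). These counts became 27 higher and 3 lower with total counts alone (32.2% and 6.01% of all genes), and 12 were lower with relative log expression factors, DESeq2 or another TMM reference. Methylation enzymes other than the members gave 2 higher and 5 lower of 30, whereas with total counts alone 6 were higher and 0 lower, and without control replicates 3, 6 and 12 there were 3 lower. Prmt2, an arginine methyltransferase, went from 1.35 ± 0.42 CPM in control to 4.89 ± 1.42 CPM in MCD (SD, n = 12), a log2 fold change of 1.85. Ash1l, an H3K36 methyltransferase with a long transcript, went from 36.9 ± 11 to 20.4 ± 1.73 CPM, a log2 fold change of -0.86, and was not past the threshold with total counts alone (-0.53).

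Genes of the complexes around the enzymes are read beside the 38.3% of all genes that passed and the 19.1% that fell; no difference from that share was tested. Of 9 further subunits of Polycomb repressive complex 2, 1 fell, Phf19, a chromatin-binding accessory subunit, at -1.13 (FDR 3.02e-06). Of 11 subunits of the COMPASS and MLL complexes, 1 fell, Men1, the menin gene, at -0.50, which was -0.45 with another TMM reference. Of 10 readers of DNA methylation and base repair genes, 1 fell, Mbd1, a methyl-CpG binding protein, at -0.56, which was -0.49 with another TMM reference. Of 8 partners and readers of H3K9 methylation, none passed in edgeR, DESeq2 or limma-voom, although 4 had an unadjusted p under 0.05 in edgeR and 2 met the FDR limit alone.

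Substrate supply was read from 2 lists. Of 13 genes of the methionine cycle and SAM supply, 2 rose and 6 fell (61.5%, beside 38.3% of all genes), while with total counts alone 2 were higher and 1 lower. Gnmt, the glycine N-methyltransferase that disposes of excess SAM, ran from 617 to 2550 CPM in control and from 460 to 776 CPM in MCD, and its log2 fold change was -1.15 ± 0.18 (SE; FDR 4.96e-06). Of 8 genes that bear on 2-oxoglutarate, 4 fell (50%), and with total counts alone 1 was higher and 1 lower.

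Marker genes of liver cell types moved with the diet too, and their counts stand beside 19.2% of all genes higher and 19.1% lower. Hepatocyte markers summed to 75400 to 168000 CPM in control and 53600 to 80400 CPM in MCD, with 3 of 8 lower, so the labelled tissue held its defining genes. Macrophage markers were higher for 8 of 8 (116 to 331 CPM in control, 1050 to 2560 CPM in MCD), mesenchymal markers for 8 of 9 with 1 lower (165 to 506 against 682 to 1200 CPM) and cholangiocyte markers for 5 of 5 (3.84 to 15.1 against 44.8 to 107 CPM). Lymphocyte markers were higher for 5 of 8 (3.77 to 12.6 against 10.9 to 25.9 CPM). Kupffer cell markers were lower for 5 of 5 (101 to 300 against 35.1 to 154 CPM), with Cd163 at 0 counts in at least 1 MCD library, and endothelial markers for 5 of 6 (181 to 265 against 103 to 162 CPM). In the control libraries Ms4a1, a B cell marker, was at 0 counts in at least 1. With total counts alone 2 Kupffer cell, 2 endothelial and 0 hepatocyte markers were lower (6.01% of all genes), and without control replicates 3, 6 and 12 the Kupffer cell count was 3. The part of cell makeup in the members' changes was not tested.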

How the data were processed

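Poly(A) RNA of 24 mouse livers (12 control, 12 MCD) was read on 1 table. The values the authors deposited are raw counts per Ensembl gene. The submitters' processing notes name bcl2fastq, STAR 2.7.3a and mm10; the methods of the study describe a stranded TruSeq kit and, for the human reference, an exon quantification pipeline that ran STAR, followed by PISCES. For the mouse libraries the counting program, the annotation and the use of strand are not given in the sources used here. Symbols, transcript lengths and exon overlaps came from GENCODE M21, which named 51745 of 56205 rows; rows without a symbol held 0.0808% of counts. Because the annotation behind the counts is unknown, no gene coordinates are given for them. Exons of 18 members overlap another gene. Opposite-strand overlaps include Setdb1 with Cers2, Nsd2 with Nelfa, Carm1 with Yipf2, Kdm5a with Ccdc77, Kmt2e with Srpk2 and Kdm2b with Rnf34.

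Counts were analysed in R 4.3.3. Genes kept by filterByExpr (14109) were scaled by TMM and compared by diet with edgeR 4.0.16 (glmQLFit, glmQLFTest) without covariates. The limits, FDR 0.01 and absolute log2 fold change 0.5, are those the study set for human liver. The study's sex covariate was left out because no library carries a sex label. A score from sex-linked genes was fitted only as an alternative, and the permutation tests and correlations ignored sex. The SE was derived from the fold change and the F statistic, and intervals are at 95%. CPM uses TMM-scaled totals, and log2 CPM a prior count of 2. The biological coefficient of variation was 26.8%. On simulated counts for the same comparison (14109 genes, 200 changed) the fit recovered 191 and made 0 false calls.

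Alternatives were other scalings, filters and limits, DESeq2 1.42.0, limma-voom (limma 3.58.1), a replicate block, a sex-linked score as a covariate, and dropping each library in turn. Same-numbered libraries were not paired: their deviations correlated above 0.1 in 8 of 12 pairs (-0.28 to 0.35, median 0.23). Permutation tests used 100000 resamples (scipy 1.17.1, numpy 2.4.6, pandas 2.3.3, Python 3.11.15), and figures matplotlib 3.10.9. Members past both limits, and partners with the largest rise or fall past them, are named, except for some partners not reported here; the members and lists were chosen with earlier results of these data known. Members not past the limits are given with their intervals. Promoter windows and their coordinates are from RefSeq (GRCm38.p6).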

Additional observations from a re-analysis of the deposited data

How the results depend on the processing

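Depth did not limit most members, but Tet1, Suv39h2 and Uhrf1 rested on few counts, where counting error is large and intervals cover it only through the fitted spread. The fold changes stand on a scaling that differs between the diets. Kmt2c, Setd1b, Uhrf1, Prmt1, Setd7 and Dnmt3a kept their calls with DESeq2, limma-voom, the replicate block, either other filter and relative log expression factors, and when any single library was left out, except that Uhrf1 was not tested with a minimum of 10 counts in each library; Setd1b lost its call with total counts alone, Nsd3 with those and with upper-quartile factors, and with a log2 limit of 1 only Uhrf1 remained. Tet3 and Setdb2 kept theirs in none of the other scalings. The cause of these shifts was not tested.

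The count of lower members was 3 with relative log expression factors, without a filter, with a minimum of 10 counts in each library, and with DESeq2, limma-voom, the sex-linked score and, chosen after seeing the data, another TMM reference library. It was 2 with upper-quartile factors, 1 with total counts alone, 19 at an FDR of 0.05 and any fold and 0 with a log2 limit of 1, while the count of higher members was 10 with total counts alone, 8 at an FDR of 0.05 and any fold and 1 with a log2 limit of 1. Leaving out 1 library at a time gave 4 higher and 3 to 7 lower members. Under the replicate block 4 members were higher and 3 lower, and 2 of the 8 pair ratios passed; only 2 of 12 libraries correlated best with their own number, so the numbers were not taken as pairs.

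Over all genes, total counts alone gave 4539 higher and 848 lower, upper-quartile factors 1710 lower, a minimum of 10 counts in each library 1801 higher, an FDR of 0.05 at any fold 5221 lower, and a log2 limit of 1 gave 686 lower; leaving out 1 library gave 2701 to 3052 higher and 2228 to 2812 lower. For partner genes the higher count was 27 with total counts alone, and the lower count was 12 with relative log expression factors, DESeq2, a minimum of 10 counts in each library or another TMM reference, 11 with upper-quartile factors, 3 with total counts alone, 53 at an FDR of 0.05 and any fold and 3 with a log2 limit of 1 (leaving out 1 library, 16 to 18 higher and 13 to 19 lower). With total counts alone, 3 of the 12 proliferation relations passed.

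Some members not past the threshold changed sign. With total counts alone the log2 fold change was 0.146 for Tet2, 0.343 for Ehmt2, 0.143 for Setd1a, 0.006 for Setd2, 0.048 for Kmt2b, 0.031 for Kmt2d, 0.212 for Dot1l, 0.237 for Kdm4a, 0.347 for Kdm4b, 0.302 for Kdm4c, 0.108 for Kdm5b and 0.031 for Carm1. With upper-quartile factors it was 0.12 for Ehmt2, 0.015 for Dot1l, 0.043 for Kdm4a, 0.122 for Kdm4b and 0.10 for Kdm4c. For Ehmt2, Kdm4b and Kdm4c in that order, relative log expression factors gave 0.024, 0.026 and 0.015, DESeq2 0.024, 0.028 and 0.011, another TMM reference 0.024, 0.027 and 0.014, and a minimum of 10 counts in each library 0.051, 0.052 and 0.033. Without a filter Ehmt2 was at 0.007 and Kdm4b at 0.009. Without control replicates 3, 6 and 12, also chosen after seeing the data, Ehmt2 was at 0.164, Setd1a at 0.048, Dot1l at 0.015 and Kdm4b at 0.146. Leaving out 1 library gave -0.057 to 0.065 for Ehmt2, -0.024 to 0.094 for Kdm2b, -0.067 to 0.061 for Kdm4b, -0.077 to 0.007 for Kdm4c and 0.000 to 0.088 for Nsd2. Among the correlations, total counts alone turned Suv39h2 in control to 0.105 and Nsd2 in MCD to 0.271, and leaving out the 2 farthest libraries turned Ezh2 in control to -0.094, Kmt5a in MCD to -0.185 and Nsd2 in MCD to 0.028.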
